A study of Homo sapiens with 6 samples.

Results

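MYC binding was examined at the starts of 7 genes that regulate or mark neural stem cells and the developing cerebellum. These genes were SOX9, NES, PAX6, OTX2, ZIC1, HES1 and LIN28B. A gene was counted as carrying MYC where the summit of a MYC peak, the base with the highest signal, lay within 5 kb of the gene's hg19 start. The lists held 59006 peaks in all, and 25 of them met this rule. They formed 10 of the 27801 places that were obtained when overlapping peaks were merged across replicates. SOX9, HES1 and LIN28B had such peaks, whereas NES, PAX6, OTX2 and ZIC1 had none in any replicate.

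The cells were ONS76, a human medulloblastoma line, and MYC-bound DNA was enriched with an antibody and sequenced (ChIP-seq). The group comprised 3 MYC libraries made with antibody Y69, labelled replicates 1, 2 and 3. Normal IgG libraries were made from the same line as a non-specific comparison, but they were not analysed here as samples. The labels give all 6 libraries an engineered inducible SOX2 genotype with no agent, dose or time of induction, whereas the study's methods for this assay name ONS76 without it. According to the study, SOX2 was not elevated for this experiment, and immunoprecipitations from one chromatin batch were combined. Values over replicates therefore measure the spread between libraries, which may be technical. Peak lists hold no expression, so the cell type could not be checked against marker genes.

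MYC is a basic helix-loop-helix transcription factor that pairs with MAX and prefers the E-box CACGTG. Cerebellar neurons arise from dividing progenitors of the ventricular zone and the rhombic lip, and medulloblastoma is a tumor of this region. HES1 is a Notch-responsive repressor that keeps progenitors undifferentiated, SOX9 is an HMG-box factor of neural stem cells and glia, and LIN28B is an RNA-binding protein that blocks the maturation of let-7 miRNAs. NES encodes nestin, an intermediate filament protein of neural stem cells. PAX6, OTX2 and ZIC1 are transcription factors of rhombic lip and granule neuron progenitors, and OTX2 is known for its high expression in some groups of medulloblastoma.

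Promoter sequences were taken from RefSeq (GRCh38.p14), as the 250 bases before each start. They are shown for 3 genes: HES1 carried the strongest peaks, LIN28B carried peaks and an E-box, and ZIC1 had an E-box but no peak. Peaks were counted within 5 kb, but motifs only in these short promoter windows. The strongest place had its median summit 1.04 kb upstream of the HES1 hg19 start and 0.64 kb downstream of that of LIN28B. Both distances are longer than the windows, and the sequence under the summits was not examined, so motif and peak are not matched here. Capitals mark the E-box CACGTG in LIN28B and ZIC1. In HES1, which held no CACGTG in this window, capitals mark TGGGAA, the core of the site of the Notch effector RBPJ. Each runs 5′ to 3′ toward the start, on the plus strand. HES1 is from chr3:194135898-194136147, LIN28B from chr6:104956857-104957106 and ZIC1 from chr3:147409115-147409364.
HES1: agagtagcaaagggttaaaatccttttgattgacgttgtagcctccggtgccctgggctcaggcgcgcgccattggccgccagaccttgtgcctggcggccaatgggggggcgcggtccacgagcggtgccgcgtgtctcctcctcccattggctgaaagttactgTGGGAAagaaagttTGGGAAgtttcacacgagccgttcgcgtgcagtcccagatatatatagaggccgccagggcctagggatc
LIN28B: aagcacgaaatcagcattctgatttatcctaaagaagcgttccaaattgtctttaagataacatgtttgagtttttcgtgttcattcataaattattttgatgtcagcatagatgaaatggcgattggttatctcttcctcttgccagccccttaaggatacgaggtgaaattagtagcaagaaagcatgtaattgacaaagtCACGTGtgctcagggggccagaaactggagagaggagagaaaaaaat
ZIC1: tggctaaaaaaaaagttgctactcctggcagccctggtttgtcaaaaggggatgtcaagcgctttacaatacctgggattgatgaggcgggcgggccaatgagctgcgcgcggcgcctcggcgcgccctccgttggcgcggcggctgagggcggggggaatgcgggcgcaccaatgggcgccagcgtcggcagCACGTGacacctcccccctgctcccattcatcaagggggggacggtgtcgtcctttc

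E-boxes were counted in 300 bases of promoter, which added the first 50 bases after the start. CACGTG reads the same on both strands. It occurred in 2 of the 16 promoters listed for 6 of the 7 genes, against 7.26% of 35116 promoters of the same length. One was the ZIC1 promoter, where the motif began 57 bases before the start. The other was the second of 2 LIN28B promoters, where it began 47 bases before the start. No match was found in the HES1 or NES promoter, in the 9 PAX6 promoters or in both OTX2 promoters, and no SOX9 promoter was searched. By gene, CACGTG occurred in 2 of 6, against 8.77% of 27305 genes, and genes differ in their number of promoters. The looser form CANNTG, which includes CACGTG, occurred in 10 of the 16, against 68.7% of all promoters. The RBPJ core TGGGAA, searched on both strands after the HES1 sequence had been seen, began 84 and 70 bases before the HES1 start. No other member promoter held it, whereas 24.0% of all promoters did, and 3.80% of all promoters held it at 2 or more positions. HES1 was in GC content close to the median promoter, at 59.0% against 58.7%, and had 21 CpG dinucleotides against a median of 14. ZIC1 had 26. The promoters are of another build than the peaks, so no summit was placed on these letters, and which of the LIN28B starts corresponds to the hg19 start was not determined.

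Peaks within 5 kb of a start in at least 2 replicates were found at 3 of the 7 genes. In consecutive 10 kb windows from the first to the last peak of each chromosome, 5.23% of 294870 windows met the same rule. The windows were not restricted to gene starts, whereas the study placed the largest number of its peaks in promoter and start regions. The share among gene starts was not computed and may be higher. The genes were chosen with results of these data known, so the count is only a description. The 3 genes had 10, 7 and 8 peaks in replicates 1, 2 and 3. Of their 10 places, 8 had peaks from at least 2 replicates, which the study counted as consensus, and 62.4% of all places did. All 3 replicates had a peak at 6 of the 10, against 45.0% of all places. Of the remaining 4, 2 had peaks in a pair of replicates and 2, both at HES1, in replicate 1 alone. The genome-wide background, the lowest fragment level that any peak of a list was set against, was 7.79, 5.84 and 4.76 in replicates 1, 2 and 3. The lists held 24899, 16809 and 17298 peaks.

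**Figure D1:**
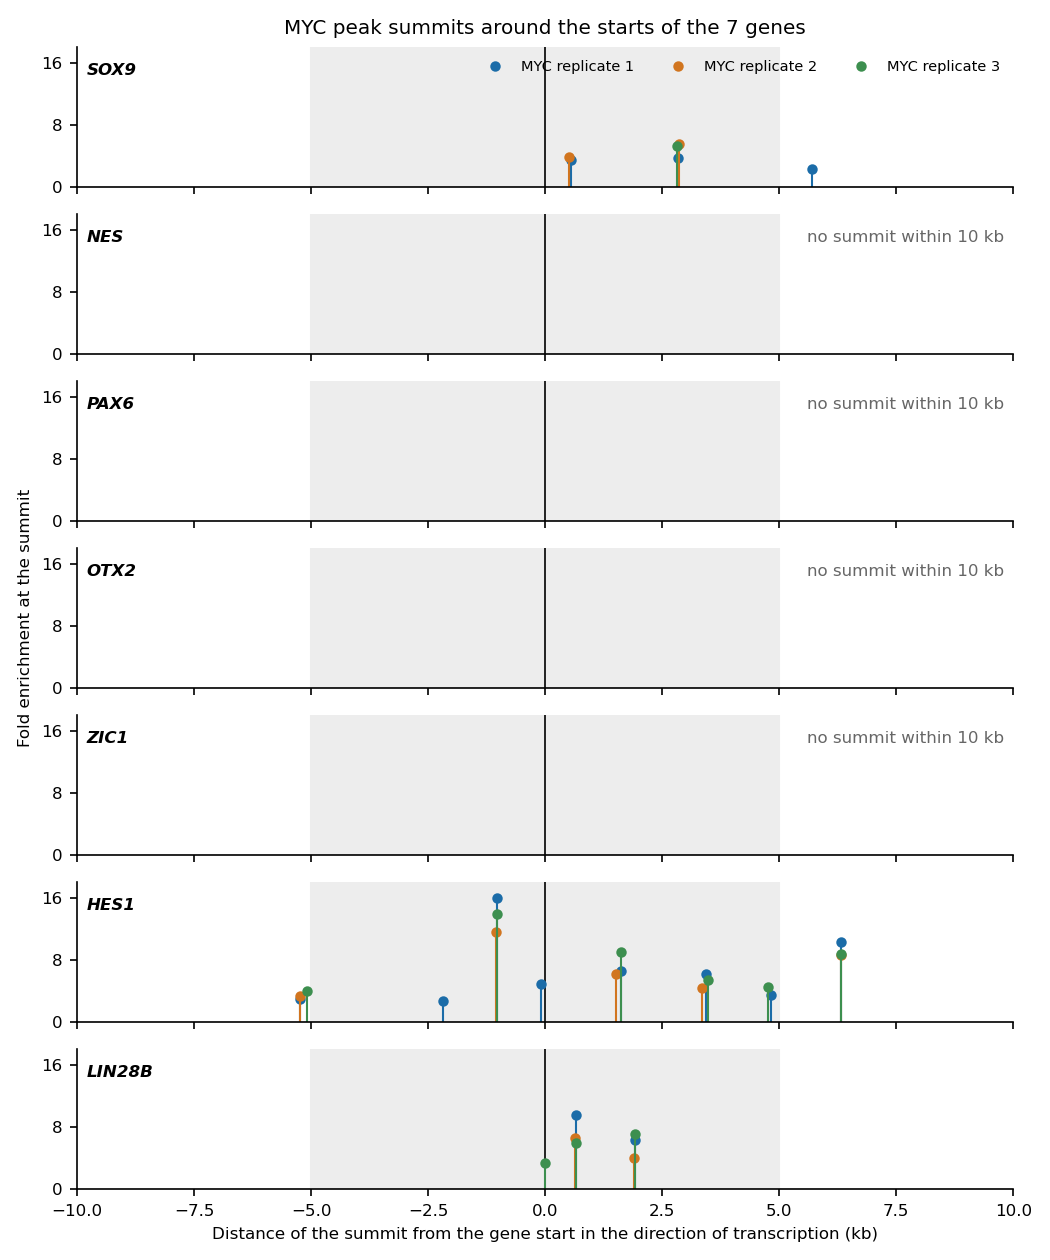
Summits of MYC peaks within 10 kb of the 7 gene starts (x axis, distance in kb in the direction of transcription) with their fold enrichment (y axis), one point per peak and one color per replicate. The grey band marks 5 kb on either side. SOX9, HES1 and LIN28B carry summits inside it, HES1 at 6 places and the others at 2 each, and the 4 remaining genes have none within 10 kb.

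HES1 carried the strongest and the most numerous MYC peaks of the 7 genes. The leading place lay about 1 kb upstream of the start, on chromosome 3 from 193852239 to 193853147 (hg19). Fold enrichment divides the fragments at the summit by those of the surrounding background, after 1 is added to each. It was 15.96, 11.5 and 13.9 in replicates 1, 2 and 3 (mean 13.8 ± 2.21, SD, n = 3). The summits held 140, 78 and 79 fragments and lay 1042, 1054 and 1042 bases upstream, within 12 bp of each other. By fold enrichment this peak ranked 477 of 24899, 799 of 16809 and 591 of 17298, and was above 95% of the peaks in each list. The local background there was at 1.01 times the genome-wide level in replicate 1 and at that level in the others.

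Downstream of the HES1 start, 2 more places were found in all 3 replicates. At the nearer one, summits lay 1625, 1504 and 1622 bases past the start in replicates 1, 2 and 3, and fold enrichment was 6.60, 6.14 and 9.03 (mean 7.26 ± 1.55, SD, n = 3). Among the HES1 places within 5 kb that had peaks in all 3 replicates, this was the only one where replicate 3 was the highest. At the farther one, summits were 3431, 3356 and 3486 bases past the start, with values of 6.15, 4.39 and 5.38 (mean 5.31 ± 0.883, SD, n = 3). RefSeq gives HES1 a length of 2585 bases in GRCh38.p14, so the first distance is within the length of the gene and the second is beyond it. In replicate 1, peaks covered 4582 of the bases within 5 kb of the start, against 2229 in replicate 2 and 2924 in replicate 3.

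The remaining HES1 places differed between replicates. A peak 4.8 kb downstream was called in replicates 1 and 3, at 3.42 and 4.53, and not in replicate 2. A weak peak 2194 bases upstream was found in replicate 1 alone, with a fold enrichment of 2.68 on 24 fragments. The peak closest to the start, 101 bases upstream, was also called in replicate 1 alone, with a fold enrichment of 4.89 on 42 fragments. In that list it was above 63.2% of all peaks. Replicates 2 and 3 had no peak over this position, although among peaks whose relative background was within 10% of the one there, these lists held peaks down to a fold enrichment of 2.48 and 2.56 on 16 and 14 fragments. A peak of the size seen in replicate 1 was thus above the lowest values called in both. HES1 had 4 consensus places within 5 kb. Of the 294870 windows of 10 kb, 38 (0.0129%) had 4 or more, a number set after the HES1 count was known. Only 23195 of the windows held any summit, and they were not centered on starts, so this share is only a description.

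The 5 kb limit cut through this group of peaks. Just inside were the summits 4830 and 4761 bases downstream of HES1 in replicates 1 and 3. Just outside was a place about 5.2 kb upstream, found in all 3 replicates at 2.99, 3.36 and 3.995. A stronger place 6.3 kb downstream had 10.3, 8.63 and 8.75 (mean 9.24 ± 0.955, SD, n = 3) and was above 87% of the peaks in each list. At SOX9 a replicate 1 peak 5702 bases downstream, at 2.36, also fell outside.

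LIN28B carried 2 places, both found in all 3 replicates and both downstream of the start. The first, on chromosome 6 from 105404626 to 105406216 (hg19), had its highest summits 661, 632 and 645 bases past the start in replicates 1, 2 and 3. Fold enrichment was 9.50, 6.58 and 5.91, a mean of 7.33 ± 1.91 (SD, n = 3), on 87, 44 and 33 fragments. Replicate 1 was the highest and had a single peak of 1591 bp. Replicate 3 instead had 2 separate peaks, and the weaker one had its summit 2 bases past the start with a fold enrichment of 3.304. This was the summit closest to any of the 7 starts, but its fold enrichment was above 13.0% of the peaks in that list. The local background there was 1.51 times the genome-wide level.

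The second LIN28B place, on chromosome 6 from 105406635 to 105406989, was narrower, and its summits lay 1917, 1890 and 1910 bases past the start. Here replicate 3 was the highest with 7.12, followed by 6.26 in replicate 1 and 3.95 in replicate 2 (mean 5.78 ± 1.64, SD, n = 3). Background and genome-wide level were equal there in all 3 replicates. The E-box shown in capitals for LIN28B is placed by a RefSeq start of another build. Whether it lies before or after the hg19 start, or under one of these peaks, was not determined.

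SOX9 also carried 2 places, both downstream of its start and both weaker than the leading places of HES1 and LIN28B. The place near the start, on chromosome 17 from 70117283 to 70117948 (hg19), was called in replicates 1 and 2, with summits 557 and 515 bases past the start. Fold enrichment was 3.43 and 3.86, on 45 and 29 fragments, which was above 32.3% and 34.1% of the peaks in these lists. Replicate 3 had no peak there, and at a like background its list went down to 2.53 for the value of replicate 2 and to 2.26 for that of replicate 1.

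The stronger SOX9 place, on chromosome 17 from 70119559 to 70120563, was found in all 3 replicates. Its summits lay 2837, 2866 and 2819 bases past the start, within the 5397 bases that RefSeq gives the gene in GRCh38.p14. Fold enrichment was 3.70, 5.54 and 5.32 in replicates 1, 2 and 3 (mean 4.86 ± 1.01, SD, n = 3). Replicate 1 was the lowest here, unlike at HES1 and LIN28B, where it led at the strongest place. The local background was 1.29, 1.16 and 1.01 times the genome-wide level. Its part in the low value was not tested. Over the genome-wide background alone the values were 5.14, 7.19 and 6.31.

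**Figure D2:**
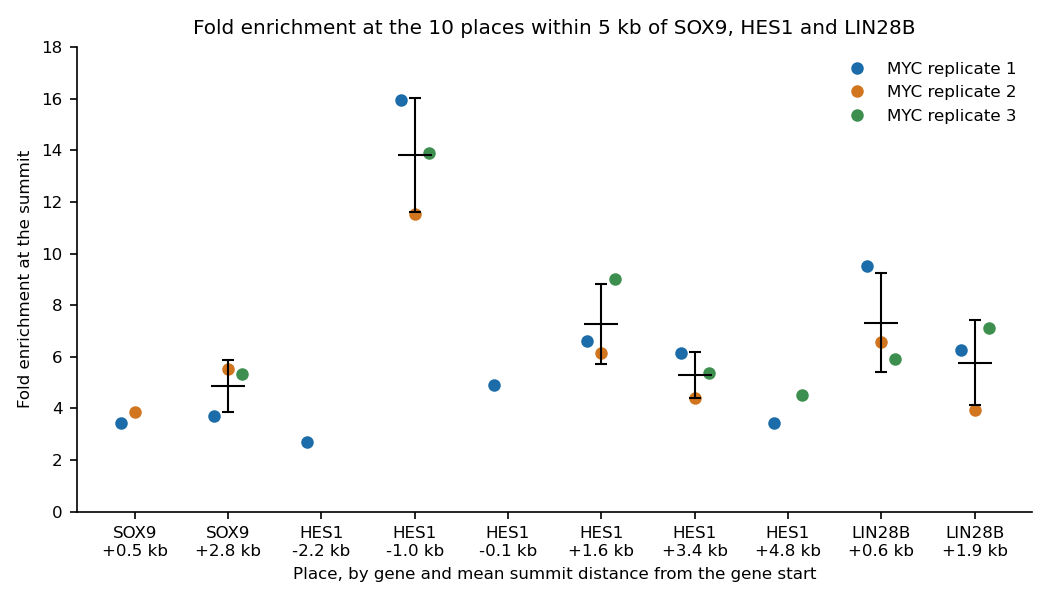
Fold enrichment at the summit (y axis) for the 10 places within 5 kb of SOX9, HES1 and LIN28B (x axis, by gene and mean summit distance in kb), one point per replicate with a peak. The bar and whiskers are the mean ± SD for places found in all 3 replicates. The HES1 place 1 kb upstream lies between 11.5 and 15.96 and overlaps no other place.

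The 6 places found in all 3 replicates were ordered by mean fold enrichment. HES1 upstream came first, followed by LIN28B at 0.6 kb (7.33), HES1 at 1.6 kb (7.26), LIN28B at 1.9 kb (5.78), HES1 at 3.4 kb (5.31) and SOX9 at 2.8 kb (4.86). The lowest value at the HES1 upstream place, 11.5, was above the highest at every other place, 9.50. For the 4 neighboring pairs that follow in this order, the ranges of the replicates overlapped. Within libraries, HES1 at 1.6 kb was above LIN28B at 1.9 kb in 3 of 3 replicates, and in the other 3 pairs the order held in 2 of 3. Among the 15 possible pairs, the order was the same in every replicate for 10, and the ranges did not overlap for 7. No test was run on this order. Even taken as unpaired, 3 values against 3 cannot give an exact two-sided permutation p below 0.10. Values of places from the same 3 libraries are also paired.

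Within their own lists the leading places spanned a wide range. The HES1 place was at the 98.1, 95.3 and 96.6 percentile of fold enrichment in replicates 1, 2 and 3. The LIN28B place was at 91.4, 78.9 and 68.7, and the SOX9 place at 39.3, 67.8 and 59.8. HES1 was therefore among the strong MYC peaks of this line in each library, while SOX9 was near the middle, on either side of the median.

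**Figure D3:**
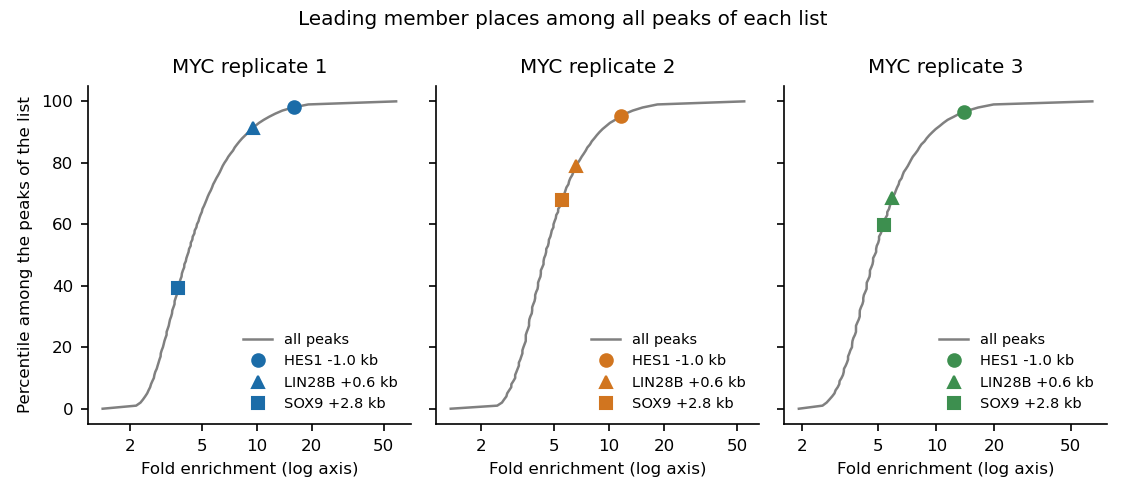
Percentile among all peaks of the list (y axis) against fold enrichment (x axis, log scale), one panel per replicate. The line is all peaks, and the symbols are the strongest places of HES1, LIN28B and SOX9. HES1 sits at 95.3 or above in each panel, LIN28B between 68.7 and 91.4 and SOX9 between 39.3 and 67.8.

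The 4 genes with no peak near their start differed in their surroundings. PAX6 and OTX2 lay in stretches without MYC peaks. The nearest summits to the PAX6 start were 263.3 kb upstream in each of the 3 replicates, at one place with a fold enrichment of 5.64, 4.48 and 5.24. RefSeq lists 9 PAX6 promoters within a gene of 28936 bases (GRCh38.p14), a length far below this distance. For OTX2 the nearest place with peaks in all 3 replicates was 458 kb upstream, at 5.01, 3.36 and 3.82, and replicate 3 alone had a weaker summit 302 kb upstream at 2.61. Of the centers of the 10 kb windows, 36.8% were farther from a consensus place than the PAX6 start and 25.4% farther than the OTX2 start. Distances as long as these were thus common among the windows, which were not filtered for genes or for sequence that reads can be mapped to.

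ZIC1 had 1 consensus place within 250 kb. It lay 15.98 kb upstream in replicate 1, at 3.38, and 15.7 kb upstream in replicate 3, at 4.69. Replicate 2 had no peak there, and its nearest summit was 864.7 kb upstream. ZIC4, another zinc finger gene of the ZIC family, is the next protein-coding gene on that side in RefSeq, and the peak was not assigned to either gene here. ZIC1, whose promoter held the E-box shown above, thus had no summit within 10 kb of its hg19 start in any of the 3 lists.

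NES, in contrast, had no summit within 10 kb but 13 consensus places within 100 kb, the highest number at this distance, whereas HES1 had more within 50 kb (9 against 5) and 250 kb (20 against 19). Replicate 1 alone had a weak peak 12.2 kb upstream of NES, at 2.84. The nearest consensus places lay 15.9 and 16.9 kb downstream of the start, beyond the gene length of 8645 bases in GRCh38.p14, on the side where RefSeq places BCAN. The farther of these was found in all 3 replicates at 5.49, 5.42 and 5.75 (mean 5.55 ± 0.177, SD, n = 3). On the upstream side, where CRABP2 is the next protein-coding gene, the nearest place in all 3 replicates was 29.4 kb away, with 12.95, 7.67 and 12.9 (mean 11.2 ± 3.03, SD, n = 3). The strongest were 63.7 kb upstream (mean 15.8 ± 1.25) and 76.0 kb downstream (mean 15.2 ± 1.06, SD, n = 3), both above the HES1 mean of 13.8 but with overlapping ranges. The 7 genes had 31 consensus places within 100 kb in all: 13 around NES, 12 around HES1, 3 around LIN28B, 2 around SOX9, 1 around ZIC1 and none around PAX6 and OTX2.

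**Figure D4:**
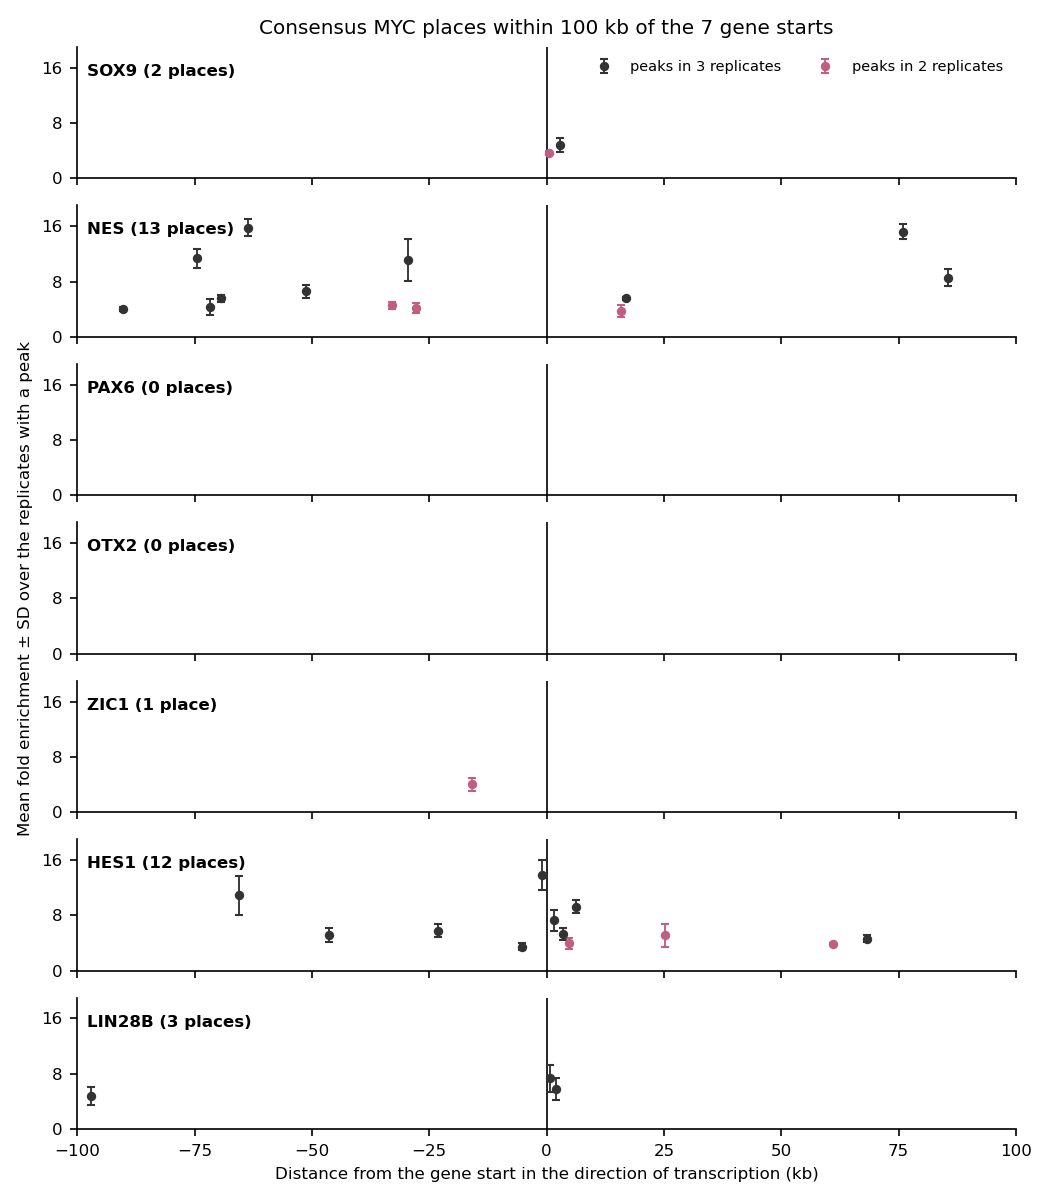
Consensus places within 100 kb of the 7 gene starts (x axis, distance in kb in the direction of transcription) with their mean fold enrichment ± SD over the replicates with a peak (y axis). Black points have peaks in 3 replicates and pink points in 2. NES has 13 places, none nearer than 15.9 kb, HES1 has 12, and PAX6 and OTX2 have 0.

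A pair of wider lists of genes with like roles were examined for the E-box alone, because no source used here gives their hg19 starts. Of 11 neural stem genes such as SOX1, VIM and NOTCH1, 8 had promoters in the table, and 0 of their 11 promoters held CACGTG. Of 14 cerebellar and rhombic lip genes such as ATOH1, EN2 and ZIC4, 11 were in the table, and 1 of their 17 promoters, that of LMX1A, held it (5.88%, against 7.26% of all promoters).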

How the data were processed

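ChIP-seq of MYC in ONS76 cells was analysed from 1 peak list per library (3 libraries). According to the study's methods, the authors aligned reads to hg19 with Bowtie2 and called peaks per library with MACS2 (q-value cutoff 0.05), with control, duplicate handling and versions not given in the sources used here. Deposited columns hold a fold enrichment at the summit (a ratio with 1 added to both terms), −log10 p-values and −log10 q-values, and a score that is 10 times the −log10 q-value, which was not used. Library totals were not used here, and summit fragments and local background were recovered from the fold and Poisson p-value; a whole number matched within 0.001 for 100% of peaks, and the procedure was tested on simulated data. Peaks overlapping by 1 bp were merged into places. Gene starts were those of the rule, summits the peak start plus the deposited offset, strands those of GENCODE v44. Names, lengths and promoters came from RefSeq (GRCh38.p14), and no position was carried between builds. All 7 genes are named. Genes and lists were chosen with earlier results of these data known. Python 3.11.15 with scipy 1.17.1 was used. Alternatives are given in the closing section.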

Additional observations from a re-analysis of the deposited data

How the results depend on the processing

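The number of genes with a peak within 5 kb in at least 2 replicates was 3, namely SOX9, HES1 and LIN28B, at q-values of 0.01 and 0.001, with windows of 2 kb and 10 kb, with any base of the peak in the window, with peaks in all 3 replicates, with equal numbers of the strongest peaks and without each replicate in turn. It was 2 with a window of 1 kb, which HES1 left because its leading place lies farther out. The mean fold enrichment of the SOX9 place rose to 6.21 over the genome-wide background, and its percentile was 39.98 among peaks at places in all 3 replicates, where that of HES1 was 95.2. The first alternative by construction drops the local background, and the second ranks only against peaks found in every replicate. Consensus places numbered 19 within 50 kb and 50 within 250 kb instead of 31, and 23 to 28 without one replicate. With any E-box CANNTG, 4 genes had a match instead of 2, and the share of all genes was not computed for this form. Of 64 alternative values, 58 stayed within the spread between replicates or within 1.5 times of a count. Without one replicate, mean fold enrichment was 12.7 to 14.9 at HES1, 6.24 to 8.04 at LIN28B and 4.51 to 5.43 at SOX9. No paired analysis was possible because only the MYC group was analysed as peak lists, with no test between groups. A place missing from a list does not show absence of binding.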

Other observations

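The replicates did not keep one order at the member places. At places found in all 3 replicates, the fold enrichment of replicate 1 was a median of 1.14 times that of replicate 2. At the SOX9 place 2.8 kb downstream it was 0.668 times, and 2.28% of all such places had a ratio as low or lower. At the LIN28B place 1.9 kb downstream the ratio of replicate 2 to replicate 3 was 0.554 against a median of 0.926, and 0.984% of places were as low or lower. The summits there held 26 fragments in replicate 2 and 40 in replicate 3. At the first LIN28B place the ratio of replicate 1 to replicate 3 was 1.61 against a median of 1.05, with 96.4% of places at or below it. These 3 were picked after the values were seen, out of 18 ratios at the 6 member places. Of the 18, 12 lay outside the interquartile range of all such places. By definition as many of all such places lie outside that range as inside it. The 3 ratios of a place share libraries, so the 18 are not independent and the count is only a description.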
